A study of Mus musculus with 16 samples.

Results

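The semaphorins, plexins and neuropilins were followed through the dorsal hippocampus of mice that had or had not learned to avoid a place. The members were taken by gene symbol, as every gene named Sema3 to Sema7, Plxna to Plxnd, Nrp1 or Nrp2, and 32 of the 24972 genes in the files met this rule. They comprised 20 semaphorins, 9 plexins, both neuropilins and Plxna4os1, a noncoding RNA antisense to Plxna4. Adult mice of 3 to 4 months carrying ArcCreERT2::eYFPflx, in which the Arc gene drives a tamoxifen-dependent Cre and Cre switches on a yellow fluorescent reporter, made up both groups, so that no group lacked these alleles. Trained mice learned in 4 training trials to stay out of a shock zone on a rotating arena, and untrained mice walked the same arena with the shock never on. Memory was tested 24 h after the last training trial, and dorsal CA1, CA3 and the dentate gyrus (DG) were microdissected 60 min after that test, pooled per animal and subregion without sorting for the reporter. RNA-seq libraries came from 3 trained and 3 untrained mice for CA1, and from 3 trained and 2 untrained mice each for CA3 and DG. The methods state that both sexes were used in each group, and the labels give no sex for a library.

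Semaphorins are guidance proteins that are secreted, held in the membrane by a transmembrane segment, or, for Sema7a, held by a lipid anchor. Plexins are their main receptors, and the intracellular part of a plexin acts on small GTPases and so on the actin skeleton of axons and dendritic spines. Most secreted class 3 semaphorins need a neuropilin beside a class A plexin, whereas Sema3e can bind Plxnd1 directly. Class 6 semaphorins bind class A plexins, Sema4d binds Plxnb1, and Sema7a binds Plxnc1 and integrins. In the hippocampus, the family is known for placing mossy fibre axons in their layer and for trimming axons and spines.

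The deposited values are normalized estimated counts, and their sums per library lay between 7607326 and 7984931. In 7 libraries between 7567 and 9759 genes were at 0, and in the other 9 between 3124 and 5944. The first kind comprised every library of trained CA1 and of untrained DG and trained replicates 1 and 2 of CA3, so in CA1 and in DG this split coincided with training, in opposite directions. Xist, the transcript of the inactive X chromosome, lay between 7601 and 19592 in the 9 trained libraries and between 25.5 and 52.4 in 6 of 7 untrained ones, the exception being untrained CA3 replicate 1 at 10587.5. The Y-linked Ddx3y lay between 1.66 and 12.9 in 5 trained libraries, but was 70.9 and 101 in trained CA1 replicates 1 and 3, 92.9 in trained CA3 replicate 3 and 255 in trained DG replicate 3, beside high Xist in each. It was 201 in untrained CA3 replicate 1 and 448 to 553 in the 6 untrained libraries with low Xist. Untrained CA3 replicate 1 and trained DG replicate 3, with the highest Ddx3y beside high Xist, are called the 2 most mixed libraries below. A trained group of both sexes, as the methods state it, should hold a library of low Xist, and none of the 9 was low. Untrained replicate 1 had Xist values of 26.1 in CA1 and 25.5 in DG beside 10587.5 in CA3, so its 3 libraries go against a number that marks 1 unmixed animal. Whether libraries were swapped or pooled was not tested, and trained and untrained below are the labels of the libraries. Training and these sex-linked transcripts cannot be told apart in CA1 and in DG. Marker genes separated the subregion labels only in part. A list of 5 CA1 pyramidal genes summed to 3222 to 5210 in untrained CA1, to 1599 to 1986 in trained CA1 and to 922 to 2106 in the CA3 and DG libraries. A list of 6 dentate granule genes summed to 8192 to 10181 in DG, 7171 to 9339 in CA1 and 6864 to 11229 in CA3. Of these 6 genes, 0 had a limma adjusted p under 0.05 between any pair of subregions, with 0, 1 and 0 at an unadjusted p under 0.05 for CA1 against CA3, CA1 against DG and CA3 against DG. The names CA1, CA3 and DG below are the labels of the dissected pieces.

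Plxna4, Nrp1 and Sema5a held the 3 highest levels in each of the 16 libraries, and Sema7a the next. Levels of different genes are compared here as normalized estimated count per kb of the longest annotated transcript. Plxna4, a class A plexin, had a median of 475 per kb over the 16 libraries (range 406 to 532), Nrp1 had 471 (392 to 529) and the transmembrane ligand Sema5a had 457 (338 to 565). The ranges of these 3 genes overlapped, and all 3 lay above Sema7a, at 331 (271 to 363), in the median. Sema7a lay above the range of Sema6b, which was next at 197 (133 to 232), while the highest library of Plxna1 reached 274. Plxna1 at 194, Plxna2 at 181, Sema6d at 174 and Nrp2 at 153 followed with overlapping ranges. The lowest library of Nrp2, at 119, lay within the ranges of Sema4d and Sema4f further down the order, so no gap followed Nrp2.

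Class 4 members and class B plexins filled the middle of the order. Plxnb1, Sema4d, Sema4f, Plxnb2 and Sema3e had medians from 110 down to 93.8 per kb and could not be ordered beyond their spread. Plxnc1, the receptor of Sema7a, had a median of 48.0 per kb. Sema4b, Sema4a, Sema3c, Sema5b, Plxna3, Sema6a, Sema6c, Plxnb3, Sema4g, Sema4c and Plxnd1 lay between 44.7 and 17.7 per kb. At the bottom were class 3 ligands: Sema3d at 9.29, Sema3a at 6.44, Sema3g at 4.45 and Sema3b at 3.54 per kb. Sema3f, with at most 9.83 normalized estimated counts, and Plxna4os1, with at most 8.36, did not reach 10 in any library and were not tested. The remaining 30 members were tested in every comparison. Among these, the coefficient of variation over the 16 libraries was lowest for Plxnb2 and Plxnb1, at 6.15% and 6.23%, and highest for Sema3a, at 50.6%.

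**Figure D1:**
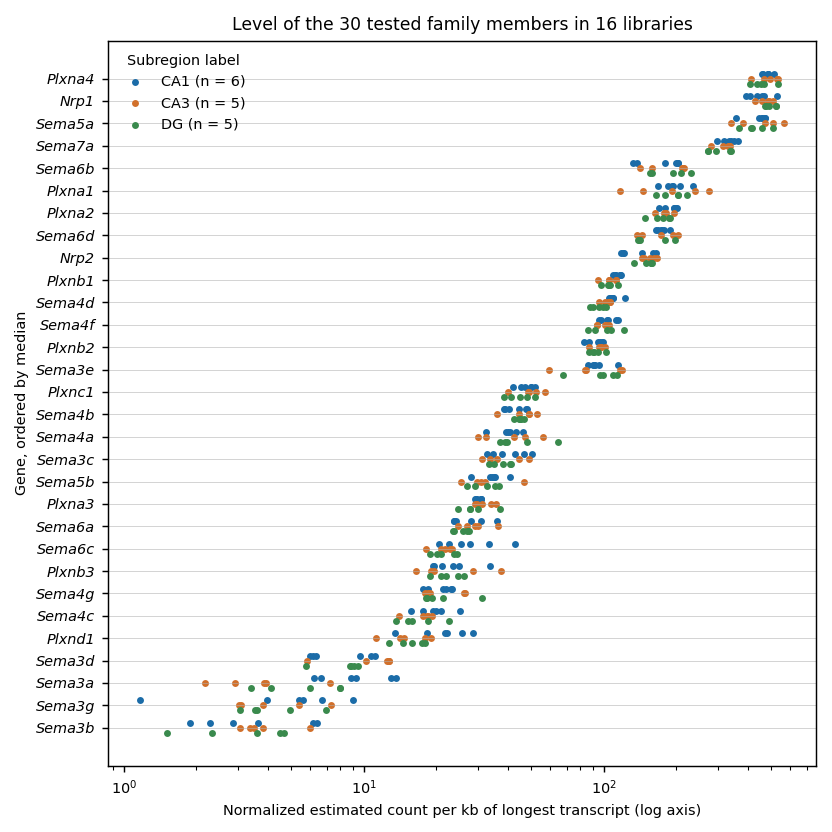
Level of each of the 30 tested members in each of the 16 libraries, as normalized estimated count per kb of the longest transcript on a log axis, with genes ordered by their median and one point per library coloured by subregion label. Plxna4, Nrp1 and Sema5a sit at the top with medians of 457 to 475, and class 3 semaphorins other than Sema3e and Sema3c sit at the bottom, from 9.29 to 3.54.

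Ligand and receptor totals were close to each other. Plexins and neuropilins together summed to 1682 to 1875 per kb in the 16 libraries, and the semaphorins to 1555 to 1793. Class A plexins held 24.2% to 26.7% of the per kb total of the family. Neuropilins held 14.8% to 19.99% and class 5 semaphorins 10.6% to 17.0%. Class 3 semaphorins, the ligands that use neuropilins, held 3.68% to 5.70%. In CA1, the neuropilin share was 14.8% to 16.5% in the 3 untrained libraries and 17.4% to 18.4% in the 3 trained ones, which do not overlap. In DG it was 18.1% to 18.3% in untrained and 18.5% to 19.99% in trained libraries, also without overlap, while in CA3 the ranges overlapped. Shares of class A plexins, Plxnd1 and class 3 semaphorins did not overlap in CA1 either, and were lower in trained libraries. Shares of 1 total are not independent of each other.

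Members that passed the test for training in at least 1 comparison are introduced with the sequence before their start site where the table of RefSeq promoters (GRCm38.p6) listed a start that lies outside the annotated gene body. The table listed 26 of the 32 members, with 37 starts. The sequences below are the 250 bases before the start, read 5′ to 3′ on the strand of the gene, for the training-changed members that met this condition. Sema6b lies on the minus strand, at chr17:56140344-56140593 for the window. Sema6d lies on the plus strand, with its window at chr2:124089719-124089968. The window of Sema3d is chr5:12382916-12383165 on the plus strand, and that of Plxnd1 is chr6:115995006-115995255 on the minus strand. Capitals mark matches to GGGCGG (the GC box) or CACGTG (an E-box), which were searched on both strands together with TGACGTCA (the cAMP response element) and GCGGGGGCG (a site of EGR proteins).
Sema6b: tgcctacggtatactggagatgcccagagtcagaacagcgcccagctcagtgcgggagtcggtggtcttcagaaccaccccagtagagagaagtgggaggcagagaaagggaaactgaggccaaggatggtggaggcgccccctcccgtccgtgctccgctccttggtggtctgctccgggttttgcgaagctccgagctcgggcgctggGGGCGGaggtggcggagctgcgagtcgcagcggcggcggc
Sema6d: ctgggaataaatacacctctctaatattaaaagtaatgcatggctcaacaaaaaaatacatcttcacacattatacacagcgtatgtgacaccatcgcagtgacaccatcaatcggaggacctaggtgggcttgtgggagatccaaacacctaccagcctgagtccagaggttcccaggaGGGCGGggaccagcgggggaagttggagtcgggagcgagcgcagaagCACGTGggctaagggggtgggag
Sema3d: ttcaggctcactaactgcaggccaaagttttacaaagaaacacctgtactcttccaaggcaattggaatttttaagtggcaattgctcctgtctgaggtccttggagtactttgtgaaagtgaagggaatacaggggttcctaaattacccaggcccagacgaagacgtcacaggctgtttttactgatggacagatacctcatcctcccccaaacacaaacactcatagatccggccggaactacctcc
Plxnd1: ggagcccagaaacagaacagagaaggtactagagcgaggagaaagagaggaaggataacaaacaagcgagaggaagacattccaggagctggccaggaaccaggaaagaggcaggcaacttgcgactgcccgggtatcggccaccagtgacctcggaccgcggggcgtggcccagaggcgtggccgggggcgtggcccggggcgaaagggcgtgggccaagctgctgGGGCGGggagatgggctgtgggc
The Sema6b and Plxnd1 windows each hold 1 GC box, the Sema6d window holds 1 GC box and 1 E-box, and the Sema3d window holds none of the 4 motifs. GC content was 66.0% for Sema6b, 64.8% for Plxnd1, 52.4% for Sema6d and 46.8% for Sema3d. The median was 64.0% over the 37 member promoters and 52.4% over all 32851 promoters listed. A GC box occurred in 27 of 37 member promoters and in 32.7% of all promoters, and an E-box in 2 of 37 and in 6.02%. The part of the higher GC content of member promoters in the GC box count was not tested. None of the member promoters held the cAMP response element, present in 1.55% of all, and 3 held the EGR site, present in 2.57%. These are matches of letters and not sites of binding.

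Training was first compared within CA1, which asks which members differ between mice that recalled the shock zone and mice without a shock zone. Both neuropilins and Sema6b were higher in trained mice, and the secreted ligand Sema3d was lower. Of 30 members, 4 (13.3%) had an adjusted p under 0.05 (limma on log2(value + 2), Benjamini-Hochberg over all genes tested), beside 5.23% of the 13588 genes tested, of which 3.53% were higher and 1.7% lower. The median log2 difference was 0.03 over the members and 0.00 over all genes tested, and 10 of 30 members had an unadjusted p under 0.05, beside 2565 of 13588 genes. Trained and untrained libraries did not overlap for 7 members, 3 higher and 4 lower, beside 24% of all genes tested, 12.9% higher and 11.1% lower. In these pieces of tissue, fewer cells of a type and less RNA per cell cannot be told apart.

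Nrp2 (GRCm38 chromosome 1, 62703285 to 62818695) is the neuropilin best known as the receptor of Sema3f. Its normalized estimated count was 797, 818 and 810.1 in untrained CA1 and 1077, 1110.5 and 971 in trained CA1. All trained libraries lay above all untrained ones, with a log2 difference of 0.38 (standard error 0.067, limma adjusted p = 0.00197). Nrp1 (chromosome 8, 128358604 to 128503363), the receptor part for Sema3a, had 1457, 1566 and 1411 in untrained and 1643, 1682 and 1904 in trained CA1. These groups did not overlap either, at a log2 difference of 0.24 (standard error 0.064, limma adjusted p = 0.0376). The group means were 1053 ± 72.9 against 808 ± 10.3 for Nrp2 and 1743 ± 141 against 1478 ± 79.6 for Nrp1 (SD, n = 3 each).

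Among the ligands in CA1, Sema6b (chromosome 17, 56123085 to 56140343), a transmembrane ligand of class A plexins, had 513, 495 and 671 in untrained and 765, 746 and 763 in trained libraries. The 3 trained values were close together and above the highest untrained value. Its log2 difference was 0.45 (standard error 0.096, limma adjusted p = 0.0100). Sema3d (chromosome 5, 12383385 to 12588948) had 60.7, 70.1 and 67.4 in untrained and 37.6, 38.7 and 39.9 in trained CA1, a log2 difference of -0.74 (standard error 0.201, limma adjusted p = 0.0373). Plxna2, Plxnd1 and Sema6a also had every trained library below every untrained one, without passing the test: Plxnd1 had 178, 154 and 197 in untrained and 93.1, 126 and 150.0 in trained CA1 (limma adjusted p = 0.0644), and Sema6a had 211, 192 and 247 against 163, 162 and 165 (limma adjusted p = 0.0641).

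Markers of subregions moved with training in CA1. Of the 5 CA1 pyramidal genes 2 were lower in trained CA1, of the 5 CA3 pyramidal genes 4 were higher, and 1 of the 6 dentate granule genes was higher. Of the 5 astrocyte genes 1 was lower, with sums of 10282 to 10705 in untrained and 9548 to 9908 in trained CA1, and of the 5 leptomeningeal genes 1 was lower, with sums of 220.2 to 307 against 159 to 263. The part of this in the members' differences was not tested. Nrp2 passed the test with each library left out in turn. Sema6b did not without trained replicate 3 (limma adjusted p = 0.0538) or untrained replicate 1 (0.0788). Sema3d did not without any 1 library other than trained replicate 3 (limma adjusted p from 0.0848 to 0.167). Nrp1 did not without trained replicates 2 or 3 or untrained replicates 1 or 3 (0.0671 to 0.166). Without untrained replicate 1, Nrp2 was the only member that passed.

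In CA3, Sema6b was the single member that passed the test, again higher in trained mice. That is 1 of 30 members (3.33%), beside 0.852% of 13848 genes tested, 0.737% higher and 0.116% lower. Sema6b had 593 and 527 in the untrained and 797, 804 and 791 in the trained libraries, so that the lowest trained value exceeded the highest untrained one. The log2 difference was 0.51 (standard error 0.081, limma adjusted p = 0.0232). In the untrained library with an Xist value of 10587.5, replicate 1, Sema6b had 593. Median log2 differences were 0.11 over the members and -0.01 over all genes tested, and 10 of 30 members had an unadjusted p under 0.05, beside 2182 of 13848 genes.

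Plxna1 and Sema3c followed by p-value in CA3 and missed the threshold. Plxna1 (chromosome 6, 89316314 to 89362620), a class A plexin that takes part in class 3 and class 6 signalling, had 1059 and 1313 in untrained and 1740.2, 2159 and 2471 in trained CA3. The groups did not overlap and the log2 difference was 0.83 (standard error 0.159, limma adjusted p = 0.0758). The secreted ligand Sema3c (chromosome 5, 17574281 to 17730268) had 268 and 245 against 185, 171 and 198, a log2 difference of -0.47 (standard error 0.110, limma adjusted p = 0.0780). Libraries of the groups did not overlap for 15 of 30 members in CA3, 8 higher and 7 lower, beside 33.9% of all genes tested, 17.2% higher and 16.7% lower.

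The CA3 result rested on few libraries. Sema6b lost its call without trained replicate 2 (limma adjusted p = 0.183), untrained replicate 1 (0.0793) or untrained replicate 2 (0.118), while its log2 difference stayed between 0.43 and 0.59. Without trained replicate 1, 7 members passed, among them Plxna1 (log2 difference 0.97, limma adjusted p = 0.00361) and Sema3c (-0.47, 0.0473). A list of 4 choroid plexus genes summed to 798 to 1104 in untrained and 235 to 311 in trained CA3, with 2 of 4 lower. In addition, 1 of 5 CA3 pyramidal, 1 of 6 interneuron and 1 of 3 oligodendrocyte precursor genes were higher. The part of these lists in the members' differences was not tested.

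In DG, Sema6b and Plxna1 were higher and Sema6d and Sema5a were lower in trained mice. These 4 of 30 members (13.3%) stood beside 3.39% of 13935 genes tested, 1.74% higher and 1.66% lower. The median log2 difference was 0.00 over the members and 0.00 over all genes tested, and 9 of 30 members had an unadjusted p under 0.05, beside 2712 of 13935 genes. The groups did not overlap for 13 of 30 members, 6 higher and 7 lower, beside 35.6% of all genes tested, 17.5% higher and 18.2% lower.

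Sema6d (chromosome 2, 124089969 to 124667770), a transmembrane ligand of Plxna1, had 1277 and 1164 in untrained DG and 904, 899 and 911 in trained DG. The trained libraries were close together and below both untrained ones. Its log2 difference was -0.43 (standard error 0.074, limma adjusted p = 0.00777). Sema5a (chromosome 15, 32244810 to 32696341), which has thrombospondin repeats outside the cell and has been linked to synapse number on granule cells, had 5481 and 4956 against 4457, 4497 and 3958, a log2 difference of -0.28 (standard error 0.067, limma adjusted p = 0.0343). Both ligands were thus lower in every trained DG library than in every untrained one.

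Sema6b in DG had 582 and 592 in the untrained and 723, 866 and 788 in the trained libraries, a log2 difference of 0.43 (standard error 0.088, limma adjusted p = 0.0170). Plxna1 had 1494 and 1619.8 in untrained and 1848, 2001 and 1845 in trained DG, a log2 difference of 0.29 (standard error 0.069, limma adjusted p = 0.0343). Neither gene's groups overlapped. Sema7a, the lipid-anchored ligand, had 1117 and 1102 against 895, 894 and 972 without passing the test (log2 difference -0.27, limma adjusted p = 0.0563). The sources used here do not state whether counting used strand. Without it, reads of Plxna1 cannot be told from those of Gm26811 and Gm44207 on the other strand, and the same limit holds for Nrp2, Sema3d, Sema6d, Sema5a, Sema3a and Sema4d, which also overlap annotated genes on the other strand.

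No member passed in DG without trained replicate 2, where 8 had an unadjusted p under 0.05 and the limma adjusted p was 0.0666 for Sema6d and 0.108 for Sema6b. Without trained replicate 3, Sema6d alone passed (Sema6b 0.0820), and without untrained replicate 3, 7 members passed. Sema5a and Plxna1 also lost their calls without trained replicate 1 or untrained replicate 1 (limma adjusted p from 0.0896 to 0.129). Endothelial genes summed to 494 to 674 in untrained and 317 to 362 in trained DG, with 1 of 5 lower. The lists of granule cells, CA2, mural cells and thalamus had 1 gene lower each. Their part in the members' differences was not tested.

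**Figure D2:**
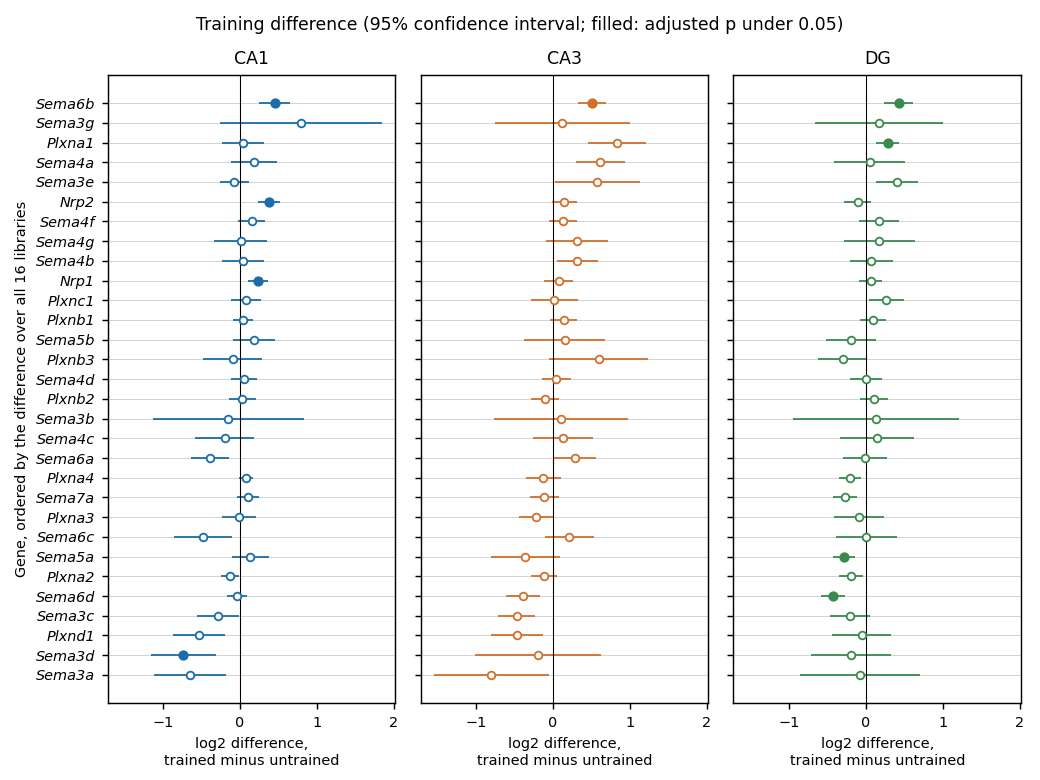
Log2 difference between trained and untrained libraries for each of the 30 tested members in CA1, CA3 and DG, with 95% confidence intervals and filled points where the limma adjusted p was under 0.05. Sema6b is filled in all 3 panels, at 0.45, 0.51 and 0.43, and the other filled points are Nrp2, Nrp1 and Sema3d in CA1 and Sema6d, Sema5a and Plxna1 in DG.

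Over the 16 libraries together, with subregion as a term, Sema6b was higher and Sema6d, Sema3c, Plxna2 and Plxnd1 were lower in trained mice. This fit uses the same libraries as the 3 comparisons above and is not independent of them. The 5 members (16.7%) stood beside 10.3% of 14673 genes tested, with 6.28% higher and 4.06% lower, and 12 of 30 members had an unadjusted p under 0.05, beside 3736 of 14673 genes. The median log2 difference was 0.02 over the members and -0.01 over all genes tested. The fit treated the libraries as independent, although up to 3 carry the same animal number. Deviations of libraries with the same number had correlations across genes from -0.108 to 0.0921, but since the sex-linked transcripts of untrained replicate 1 go against 1 animal, this does not show that libraries of 1 animal vary independently. Of the marker lists, 3 of 5 CA3 pyramidal, 1 of 6 interneuron and 1 of 3 oligodendrocyte precursor genes were higher and 2 of 5 astrocyte and 1 of 5 leptomeningeal genes lower, and their part was not tested.

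Sema6b had the smallest p of the members, with a log2 difference of 0.46 (standard error 0.056, limma adjusted p = 6.05e-05). Its 9 trained libraries lay between 723 and 866 and its 7 untrained libraries between 495 and 671, so that the groups did not overlap across the subregions. The share of all genes that separate these groups so was not counted. Sema6b was higher in trained libraries by 0.45 in CA1 and 0.43 in DG on the log2 scale. With a term for the split by genes at 0, its combined difference was 0.46 (limma adjusted p = 6.30e-05). Without the 2 most mixed libraries it was 0.48 (limma adjusted p = 0.000156). That omission leaves no untrained library with high Xist, so training and Xist then cannot be told apart in any subregion. The cause of the Sema6b difference was not tested.

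The 4 lower members had smaller differences. Sema6d had a log2 difference of -0.27 (standard error 0.060, limma adjusted p = 0.00588), with 1063 to 1219.6 in untrained and 1083 to 1129 in trained CA1, so that its lower level did not appear there. Sema3c had 207 to 275 in the 7 untrained and 171 to 235 in the 9 trained libraries, a log2 difference of -0.32 (standard error 0.074, limma adjusted p = 0.00780). Plxna2 (chromosome 1, 194618218 to 194816869), a receptor of class 6 semaphorins, differed by -0.15 (standard error 0.042, limma adjusted p = 0.0251). Its trained libraries lay below the untrained ones of the same subregion in all 3 subregions, at 1879.8 to 2159 against 2176 to 2225 in CA1, 1811 to 1991 against 2002 to 2163 in CA3 and 1647 to 1956 against 2064 to 2082 in DG. Plxnd1 (chromosome 6, 115954811 to 115995005), the receptor of Sema3e and a gene also known from endothelium, differed by -0.36 (standard error 0.109, limma adjusted p = 0.0331). It had 78.0 to 102 in trained and 124 and 132 in untrained CA3, while its trained and untrained DG libraries overlapped.

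A covariate built from sex-linked transcripts took every call away, with 0 of 30 members and 0 of all genes at a limma adjusted p under 0.05, and 8 members at an unadjusted p under 0.05. Under it, the log2 difference of Sema6b was 0.40 (limma adjusted p = 0.221) and that of Sema6d was -0.35 (0.326). Without the libraries of untrained replicate 1, Sema3c and Sema6b were the members that passed (Sema6d 0.130, Plxna2 0.198, Plxnd1 0.178), and without those of trained replicate 2, Plxnd1, Sema6b and Sema6d were (Sema3c 0.0619, Plxna2 0.0907). Plxnd1 also lost its call without the libraries of trained replicate 1 (0.145) or untrained replicate 2 (0.0931).

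**Figure D3:**
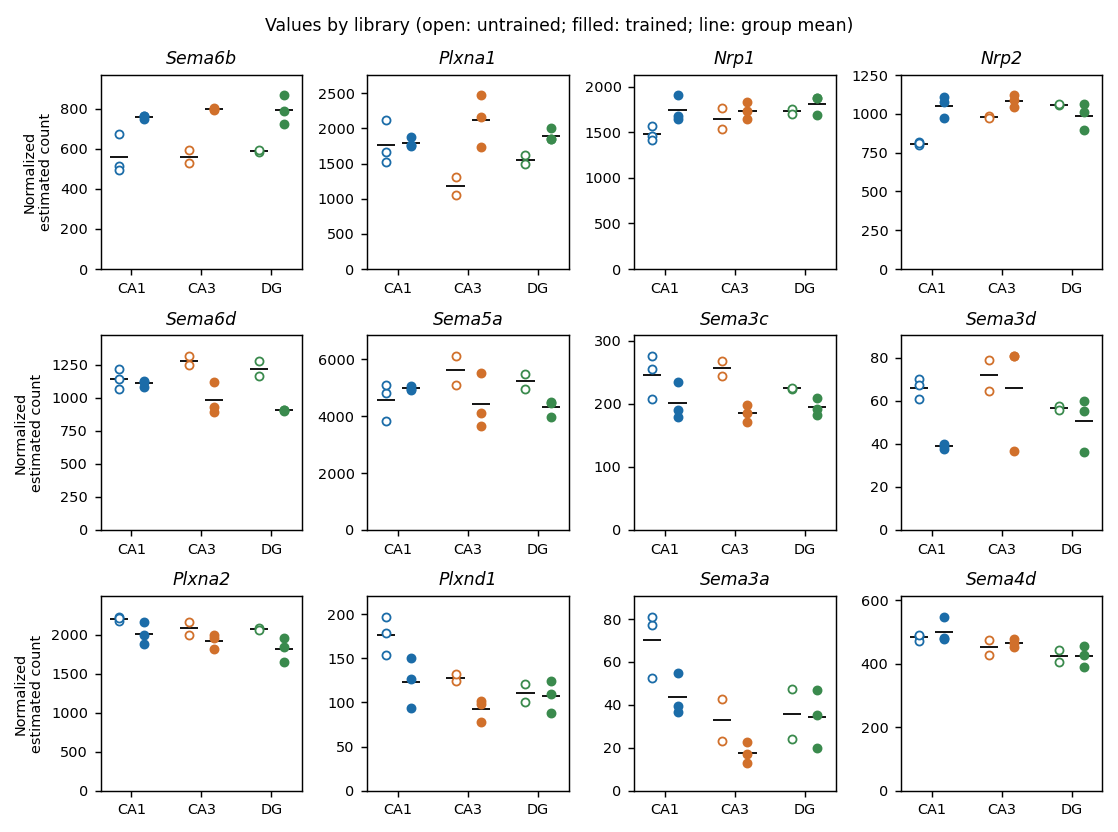
Normalized estimated count of 12 members in each library by subregion label, with open points for untrained, filled points for trained libraries and a line at each group mean, on axes that start at 0. For Sema6b all 9 trained points, at 723 to 866, lie above all 7 untrained points, at 495 to 671, and for Sema6d the trained points lie below the untrained ones in CA3 and DG but not in CA1.

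GC content of the transcripts is given beside the training differences. Sema6b has a GC content of 63.5%, Sema6c 63.5%, Plxnd1 60.8%, Plxna1 57.3%, Nrp2 51.1%, Nrp1 50.01%, Plxna2 49.7%, Sema6d 49.0%, Sema5a 45.9%, Sema3c 42.7% and Sema3d 39.2% in the longest transcript. Across the 30 members, Spearman's rho between GC content and the combined log2 difference was 0.309, beside 0.244 across 14484 genes; genes of the same libraries are not independent. Within subregions, rho was 0.213 for members and 0.178 for all genes in CA1, 0.374 and 0.320 in CA3, and 0.328 and 0.0629 in DG.

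After the trend on GC content and length was removed from every library, the combined log2 difference of Sema6b was 0.31 (limma adjusted p = 0.000776) and that of Plxnd1 stayed past the threshold. Sema6d (log2 difference -0.19, limma adjusted p = 0.123), Sema3c (-0.24, 0.0533) and Plxna2 (-0.08, 0.366) kept their sign and did not pass then, and both neuropilins did. In CA3, Sema6b had a difference of 0.28 and an adjusted p of 0.213 under this correction.

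**Figure D4:**
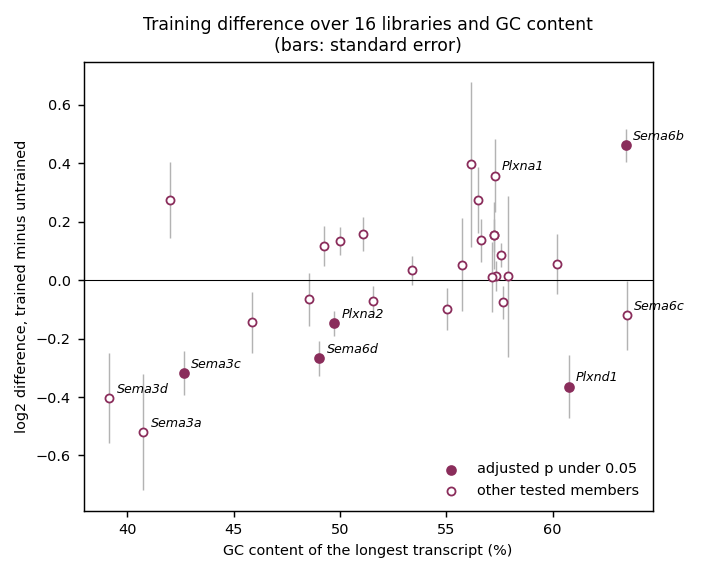
Log2 difference between trained and untrained libraries over all 16 libraries, with its standard error, against the GC content of the longest transcript in percent for the 30 tested members. Sema6b (63.5%, 0.46) is the highest point and Sema3c, Sema6d, Plxna2 and Plxnd1 are the filled points under 0.

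Subregions differed in few members. CA1 against CA3 asks where along the circuit a member is higher, with trained and untrained groups given equal weight in a fit of 6 groups. Sema3a, a secreted ligand that acts through Nrp1, was higher in CA1 than in CA3, as 1 of 30 members (3.33%) beside 0.988% of 14673 genes tested, 0.722% higher and 0.266% lower. Sema3a (chromosome 5, 13125414 to 13602565) had 52.5, 77.2 and 80.9 in untrained and 39.5, 36.9 and 54.9 in trained CA1. In CA3 it had 42.8 and 23.2 in untrained and 12.96, 17.3 and 22.7 in trained libraries. One CA3 library, at 42.8, exceeded the lowest 2 of CA1, and the other CA3 libraries lay below every CA1 library. The log2 difference was 1.16 (standard error 0.234, limma adjusted p = 0.0122), from means of 57.0 ± 18.5 (SD, n = 6) in CA1 and 23.8 ± 11.4 (SD, n = 5) in CA3.

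In DG the level of Sema3a lay between the other two. Its DG libraries had 24.3 and 47.4 in untrained and 47.2, 20.04 and 35.5 in trained mice, and neither CA1 against DG (log2 difference 0.68, limma adjusted p = 0.0989) nor CA3 against DG (-0.47, 95% confidence interval -0.98 to 0.04, limma adjusted p = 0.730) passed the test. Plxnd1 differed by 0.42 (standard error 0.124, limma adjusted p = 0.128) and Nrp2 by -0.16 (standard error 0.052, limma adjusted p = 0.175) between CA1 and CA3. The call of Sema3a was lost without the libraries of trained replicate 3 (limma adjusted p = 0.0649) or untrained replicate 2 (0.231). The 5 CA1 pyramidal markers had 4 higher in CA1 than in CA3, 2 of the 5 CA3 markers were lower and 1 of the 4 choroid plexus genes was higher, and their part was not tested.

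Between CA1 and DG, Sema4d, a transmembrane ligand of Plxnb1 known from myelinating cells and synapses, was the member that passed. It was higher in CA1, as 1 of 30 members (3.33%) beside 4.05% of 14673 genes tested, 2.14% higher and 1.91% lower, so the share of members was no larger than that of all genes. Sema4d (chromosome 13, 51685529 to 51793747) had 489, 473 and 491 in untrained and 477, 481 and 547 in trained CA1. In DG it had 445 and 405 in untrained and 429, 457 and 392 in trained libraries. All 6 CA1 libraries lay above all 5 DG libraries, yet the log2 difference was only 0.21 (standard error 0.061, limma adjusted p = 0.0484), and leaving out the libraries of any 1 animal number took the adjusted p to between 0.0722 and 0.229. How many of all genes separate CA1 from DG libraries in this way was not counted. Endothelial genes had 3 of 5 and leptomeningeal genes 1 of 5 higher in CA1 than in DG, 2 of 5 CA3 pyramidal genes were lower, and their part was not tested. Plxnd1, with a difference of 0.42, had a limma adjusted p of 0.0547.

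No member passed the test between CA3 and DG, where 0 of 30 also had an unadjusted p under 0.05. The background was low as well, with 0.00682% of 14673 genes tested, and 1007 genes at an unadjusted p under 0.05. Sema3a, Plxnc1 and Sema6a had the smallest p-values. The log2 difference of Plxnc1 was 0.16 (95% confidence interval -0.02 to 0.33, limma adjusted p = 0.734) and that of Sema6a was 0.16 (-0.03 to 0.36, 0.750). The CA1 contrasts share the CA1 libraries, and the DG contrasts those of DG, so the 3 sets of values are not independent.

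Whether the training difference itself differed between subregions was tested in the same fit of 6 groups. It did so for Nrp2 between CA1 and DG, as 1 of 30 members (3.33%) beside 2.75% of 14673 genes tested, 1.2% higher and 1.55% lower. Nrp2 in DG had 1056 and 1065 in untrained and 1009.8, 1062 and 896 in trained libraries, beside the values in CA1 given above. It was thus higher in all trained CA1 libraries, while its trained DG libraries overlapped the untrained ones. The difference of the log2 differences was 0.48 (standard error 0.103, limma adjusted p = 0.0164). Untrained CA1 had the lowest Nrp2 of all groups, at 797 to 818, while the other 13 libraries lay between 896 and 1119.8. The CA1 pyramidal genes were also highest in untrained CA1, at sums of 3222 to 5210 against at most 2106 elsewhere. For this interaction, 0 of the 5 passed and 3 had an unadjusted p under 0.05, with a median of -1.10, while 1 of 5 CA3 pyramidal and 1 of 4 thalamic genes were called higher. Of the 5 endothelial genes, 0 passed and 3 had an unadjusted p under 0.05, with a median of 0.78. Their part in the Nrp2 difference was not tested.

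Sema7a and Sema6d came next between CA1 and DG, at 0.38 (standard error 0.109, limma adjusted p = 0.0583) and 0.39 (standard error 0.112, limma adjusted p = 0.0591). The Nrp2 call was lost with a term for the libraries with many genes at 0, at a difference of 0.50 (standard error 0.233, limma adjusted p = 0.999), a split that follows training in opposite ways in CA1 and DG. It was also lost without the libraries of trained replicate 2 (0.0668) or untrained replicate 1 (0.0860), and without the 2 most mixed libraries (0.0603).

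Sema6b showed no detected difference in its training difference between subregions. The interaction was -0.06 (95% confidence interval -0.34 to 0.22) for CA1 against CA3, 0.02 (-0.26 to 0.30) for CA1 against DG and 0.08 (-0.21 to 0.38) for CA3 against DG. Of 30 members, 0 passed for CA1 against CA3 (8 at an unadjusted p under 0.05, beside 985 of all genes), beside 0.0273% of 14673 genes, 0.00682% higher and 0.0204% lower. Sema6a at -0.68 (limma adjusted p = 0.239), Plxna1 at -0.80 (0.325) and Sema6d at 0.35 (0.440) had the smallest p-values there. For CA3 against DG 0 passed (4 at an unadjusted p under 0.05, beside 1716 of 14673 genes), beside 0.164% of genes (0.116% higher and 0.0477% lower), with Plxnb3 at 0.89 (limma adjusted p = 0.298), Plxna1 at 0.55 (0.360) and Nrp2 at 0.25 (0.382) first. Plxnb3 had 99.3 and 118 in untrained and 115, 173 and 225 in trained CA3, but 157 and 149.6 against 133, 114 and 127 in DG.

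Partners of the family were read from a list of co-receptors, GTPases with their regulators, cytosolic mediators and actin regulators, of which 50 were tested. In CA1, 2 of 50 (4%) passed, beside 5.23% of all genes: Robo1, a receptor of Slit ligands, was higher in trained mice (log2 difference 0.55, limma adjusted p = 4.06e-05), and Chl1, a cell adhesion molecule that joins neuropilin complexes, was lower (-0.24, 0.0185). In CA3, 0 of 50 passed, beside 0.852% of all genes, and 9 had an unadjusted p under 0.05. In DG, 1 of 50 (2%) passed, beside 3.39% of all genes, namely Flt1, a VEGF receptor of endothelium, which was lower (log2 difference -0.94, limma adjusted p = 0.00142). With single libraries left out, 1 to 3 partners passed in CA1, with 1 without trained replicate 2, trained replicate 3 or untrained replicate 1. In CA3, 4 passed without trained replicate 1. In DG, 7 passed without untrained replicate 3 and 2 without untrained replicate 1.

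Over all 16 libraries, 6 of 50 partners (12%) passed, beside the 10.3% of all genes. Robo1 (0.35, limma adjusted p = 0.00252), Dpysl2, which encodes the collapsin response mediator protein CRMP2 (0.15, 0.00979), and Gipc1, an adaptor that binds the tail of neuropilins (0.40, 0.0197), were higher in trained mice. Chl1 (-0.20, limma adjusted p = 0.00292), Mras, a small GTPase (-0.17, 0.00989), and the receptor phosphatase gene Ptprz1 (-0.14, 0.0471) were lower. No partner passed under the sex-linked covariate, where 9 had an unadjusted p under 0.05. Without the libraries of untrained replicate 1, 0 passed and 9 had an unadjusted p under 0.05, and without those of trained replicate 2, 2 passed.

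Between CA1 and DG, 5 of 50 partners (10%) passed, beside 4.05% of all genes. The actin-severing Cfl1 (log2 difference -0.32, limma adjusted p = 0.00785), the microglial receptor Trem2 (-0.62, 0.0180), Robo1 (-0.24, 0.0329) and the kinase Pak1 (-0.18, 0.0352) were lower in CA1, and Flt1 was higher (0.60, 0.0354). Without the libraries of trained replicate 2, 0 of them passed and 9 partners had an unadjusted p under 0.05. In the other contrasts of subregions, 0 of 50 passed, with 5 partners each at an unadjusted p under 0.05. The training difference of Robo1 in CA1 minus that in DG was 0.47 (limma adjusted p = 0.0406). For Farp1, a cytosolic mediator that binds class A plexins, it was 0.46 (0.0445), from 0.17 in CA1 and -0.30 in DG, of which neither passed the test alone. These were 2 of 50 (4%), beside 2.75% of all genes, and leaving out the libraries of any 1 animal number left 0 or 1 of them called.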

How the data were processed

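RNA of microdissected CA1, CA3 and DG was depleted of ribosomal RNA and sequenced in 16 libraries. The authors aligned reads with STAR and quantified genes with Salmon. The deposited signal per gene is a normalized estimated count, and neither its normalization nor the use of strand is given in the sources used here. The counts behind it are unknown, so counting intervals are not given. GENCODE M21 (GRCm38, the build in the labels) gave positions, length and GC content for 24464 of 24972 symbols (98.0%).

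The values are not whole numbers, so log2(value + 2) was fitted with limma 3.58.1 (R 4.3.3), using robust empirical Bayes with a trend of variance on the mean, and p-values were adjusted by Benjamini-Hochberg over all genes tested. Genes with a value of at least 10 in at least 3 libraries (CA1) or 2 libraries (other fits) were tested. Libraries with the same training label and number had correlations of deviations from -0.108 to 0.0921 over 14 pairs, and those sharing subregion and number across training groups from -0.180 to 0.119 over 7 pairs.

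Full statistics are given for members with an adjusted p under 0.05, or for the 3 with the smallest p where fewer passed. Partners past the threshold are named, up to 5 a comparison, and all 6 in the combined one. The members and gene lists were chosen with earlier results of these data known. Scripts were tested on simulated data. Alternatives were other scalings, pseudocount 0.5, other filters, no robust estimation, a replicate block, a fit of all libraries, a term for the split by genes at 0, a sex-linked covariate and omitted libraries. Removal of the trend on GC content and length, and omission of the 2 libraries with the highest Ddx3y beside high Xist, were chosen after seeing the data. Spatial data were not analysed here.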

Additional observations from a re-analysis of the deposited data

Results flagged for a closer look

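Nrp2 was singled out because its training difference differed between subregions in a test of that difference itself. The log2 difference between trained and untrained was 0.48 larger in CA1 than in DG (95% confidence interval 0.27 to 0.69, limma adjusted p = 0.0164 in the fit of 6 groups). This was 1 of 30 members (3.33%), near the 2.75% of all genes called. The call was lost in 4 of 17 alternatives, which are given above. Nrp2 was higher in 3 of 3 trained CA1 libraries than in any untrained CA1 library. The part of the split by genes at 0 cannot be told apart from this difference, since it coincides with training in both subregions.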

How the results depend on the processing

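Among repeats of named values, 463 kept their direction and side of the threshold, 75 lost and 14 gained a call, and 2 turned. The 2 are the CA1 minus DG interactions of Sema7a (-0.032) and Sema6d (-0.0019) with a term for the split by genes at 0. Sema6b in the combined comparison kept its call in 17 of 18 alternatives and lost it under the sex-linked covariate (limma adjusted p = 0.221). The causes of the changes below were not tested.

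Counts of members called moved as follows. In CA1 (4 called), a fit of all libraries gave 2 and removal of the GC and length trend 7, and single libraries left out gave 1 to 4. In CA3 (1 called), the fit of all libraries gave 3 and the GC and length trend removed 0 (9 at an unadjusted p under 0.05), with 0 to 7 for libraries left out. In DG (4 called), no robust estimation gave 2, the fit of all libraries 2, and libraries left out 0 to 7. Leaving out a library that left 1 untrained sample assumes that it varies like the other group. In the combined comparison (5 called), the sex-linked covariate gave 0, omission of untrained CA3 replicate 1 gave 3, and animal numbers left out gave 2 to 7. The 6 pathway partners called there became 0 with that covariate, 2 with the trend removed, 3 without the 2 most mixed libraries and 0 to 8 with animal numbers left out. For CA1 against CA3 (1 called), animal numbers left out gave 0 to 2. For CA1 against DG (1 called), upper-quartile scaling, no filter, the trend removed and omission of the 2 most mixed libraries gave 0 each, a filter asking 10 or more of every library and the term for the split gave 2 each, and animal numbers left out gave 0 to 1. For the CA1 minus DG interaction (1 called), no filter gave 3, the term for the split gave 0, the trend removed 5, omission of the 2 most mixed libraries 0, and animal numbers left out 0 to 2. For partners in the CA1 minus DG interaction (2 called), counts ran from 0 to 5 over the alternatives. CA3 against DG and the interactions CA1 minus CA3 and CA3 minus DG had 0 called by limma in every alternative, with 0 to 3, 4 to 10 and 0 to 6 members at an unadjusted p under 0.05.

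With the replicate number as a block, 2 members passed in CA1, 7 in CA3, 5 in DG and 5 in the combined comparison. Trained and untrained mice share only a number, so this block is no pairing. Blocking subregion contrasts by animal number changed no count of calls.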

Other observations

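Of the 6 class 4 semaphorins, transmembrane ligands of class B plexins among others, 3 had every trained CA3 library above every untrained one (Sema4a, Sema4b and Sema4f), beside 17.2% of all genes tested, and the groups overlapped for Sema4c, Sema4d and Sema4g. None of the 6 passed the test in CA3. The pattern was not particular to class 4, since Sema6a, Sema6b and Sema6c, 3 of the 4 class 6 semaphorins, also lay higher there without overlap. In CA1 the groups overlapped for all 6 class 4 members. Sema4a had 96.3 and 104 in untrained and 135, 179.7 and 151 in trained CA3 (log2 difference 0.62, limma adjusted p = 0.0803). Sema4b had 142 and 176 against 192, 193 and 207, and Sema4f had 382 and 384 against 414, 431 and 417. In DG the groups did not overlap for Sema4b, at 167 and 175 in untrained and 177, 184 and 179 in trained libraries. They overlapped for every other class 4 member, such as Sema4a at 154 and 127 against 124, 206 and 119.

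Sema3e is a ligand that binds Plxnd1 directly. In the combined comparison, Sema3e had a log2 difference of 0.27 (95% confidence interval -0.01 to 0.55, limma adjusted p = 0.207) and Plxnd1 of -0.36 (-0.59 to -0.14, 0.0331). By subregion, Plxnd1 was at -0.53 (CA1), -0.47 (CA3) and -0.05 (DG) on the log2 scale. Sema3e was at -0.08 (CA1), 0.58 (CA3) and 0.41 (DG), and its differences did not themselves differ past the threshold between CA1 and CA3 (limma adjusted p = 0.671) or between CA1 and DG (0.378). Sema3e had 634, 591 and 788 in untrained and 622, 654 and 621 in trained CA1, 404 and 581 against 575, 803 and 821 in CA3, and 464 and 659.6 against 682, 776 and 749.7 in DG.

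Plxnb2 and Plxnb1 varied least among the receptors, between 539 and 665 and between 821 and 1019 in the 16 libraries, and neither passed the test in any comparison. Plxnb3, the third class B plexin, had a coefficient of variation of 24.1%, beside 6.15% and 6.23%.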
